A study of Mus musculus with 4 samples.

Results

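The genes described here are 10 transcription regulators of the mammary lineages, Gata3, Tbx3, Elf3, Elf5, Ehf, Foxa1, Trps1, Lmo1, Lmo4 and Runx1, taken by name from the 30406 genes listed in all 4 libraries of a single-cell RNA-seq study of the developing mouse mammary gland. No measured value was part of the rule, and 10, 8, 10 and 10 of them had a UMI in the cells kept at the 4 stages. The libraries came from female wild-type mice of the strain labelled C57B6 (C57 B6/N in the study's methods) at embryonic days E13.5, E14.5, E15.5 and at birth (P0), 1 library a stage, and no group carried a treatment or a mutant allele. Mammary rudiments with the mesenchyme around them were pooled from several embryos of different dams and dissociated. Cells were sorted by EpCAM after removal of those positive for CD45, CD31 or Ter119, and captured with the 10x 3' v3.1 chemistry. Every stage was dissected in its own session, and P0 glands were digested with another enzyme mix. E15.5 was counted with another version of the software Cell Ranger, on a list of 31053 genes against 32285 at the other stages. Stage therefore cannot be told apart from library, session, at P0 digestion or, at E15.5, counting. Without a second library of any stage no test between stages or classes was possible, and the intervals given here cover counting error only.

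The mammary gland starts as buds that grow from the embryonic skin into the underlying mesenchyme. The bud epithelium later sprouts, branches and divides into an outer basal layer of contractile cells and inner luminal cells, some of which sense hormones while others give rise to milk-secreting cells. Gata3 and Tbx3 are needed for the bud itself, Foxa1 and Gata3 for luminal cells with hormone receptors and Elf5 for secretory ones, while Runx1 and the LIM-only adaptors act in several cell types. Elf3, Elf5 and Ehf belong to the epithelial branch of the ETS family.

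Cells with 5000 UMIs (transcripts told apart by molecular identifiers) or more and no more than 6% mitochondrial UMIs were kept. A kept cell was called epithelial when its summed UMIs of Epcam, Krt8, Krt18, Krt5 and Krt14 exceeded those of Col1a1, Col1a2 and Col3a1, and mesenchymal in the opposite case. From the youngest stage to birth this gave 98, 45, 532 and 230 epithelial and 135, 31, 283 and 273 mesenchymal cells. Median depth per kept cell lay between 9226 UMIs at P0 and 25207 at E14.5, and 0 barcodes were shared between libraries. Markers outside the rule sided with the names. Cdh1, Cldn7, Esrp1 and Grhl2 summed to 556 to 1544 CPM (UMIs of the genes per 1e+06 UMIs of the class) in the epithelial and 6.64 to 49.0 CPM in the mesenchymal classes, and Pdgfra, Twist2, Prrx1 and Lum to 3.93 to 6.65 CPM and 1167 to 1554 CPM. The epithelial class of the embryo was not mammary alone, since 7 epidermal markers summed to 516 to 1660.5 CPM in it at E13.5 to E15.5 and to 97.5 CPM at P0. Skin-marked cells are epithelial cells with at least 3 UMIs of Krt1, Krt10, Krt15, Lor and Krt77 together. Krt15 carried most of the epidermal counts at E13.5, with 403 CPM of the 516 CPM. Bud-marked cells, defined below, also held Krt15, at 343 CPM at E13.5. Leaving out skin-marked cells therefore leaves out bud-marked cells too at that stage, and not skin alone.

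Levels are given in CPM, and a range in parentheses is the exact 95% interval of the level, ratio or share before it. In each comparison a gene with at least 20 UMIs in both classes together was held against a fold of 2, which is a rule of size and no statistical test. Where a class held 0 UMIs, the level or share that 3 counts would give is printed as the limit that 0 UMIs allow. Against such a class the fold was taken to 3 counts and is a bound, followed by its exact lower limit. In summed counts, fewer cells that express a gene and less RNA of it per cell cannot be told apart.

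The first question was in which tissue each regulator was expressed. In the epithelium against the mesenchyme, 5 of the 8 members tested at E13.5 were at least 2-fold higher, against 10.3% of all genes tested, and 0 were at least 2-fold lower, against 21.9%. At E14.5, 5 of 6 were higher (background 14.7%) and 0 lower (background 17.5%). E15.5 had 6 of 10 higher (background 16.8%) and 1 lower, Tbx3 (background 22.5%). P0 had 8 of 10 higher (background 24.7%) and 0 lower (background 18.9%). Ehf and Foxa1 at E13.5, and these with Elf3 and Elf5 at E14.5, had under 20 UMIs in both tissues together. A member low in both tissues cannot enter these counts, so they describe the members that could be measured.

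**Figure D1:**
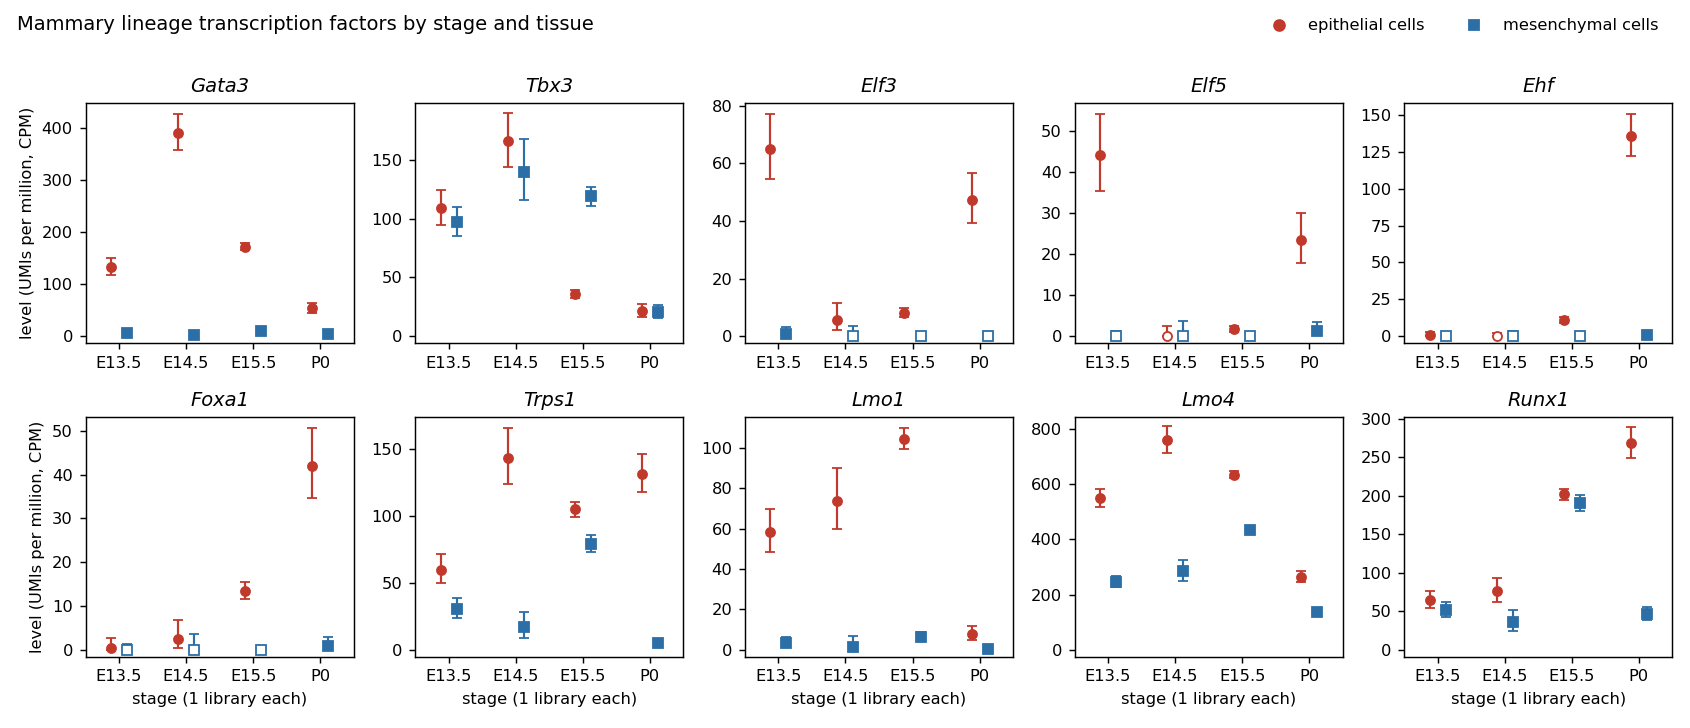
Level of each of the 10 transcription factor genes in CPM (y axis, linear, starting at 0) at the 4 stages (x axis) in epithelial (red circles) and mesenchymal cells (blue squares). Bars are exact 95% Poisson intervals of the summed UMIs of 1 library and open symbols mark 0 UMIs, with a bar up to the 3-count limit. Gata3 and Lmo1 stood above the mesenchyme at every stage, Tbx3 was below it at E15.5, and Ehf and Foxa1 were highest at P0.

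Gata3 (ENSMUSG00000015619, chr2:9857078-9890034 on the minus strand of GRCm38), a zinc finger factor of the mammary bud and of luminal cells, was epithelial at every stage. In the epithelium it stood at 132 CPM (117 to 149) at E13.5, 390.3 CPM (357 to 426) at E14.5, 172 CPM (165 to 179) at E15.5 and 53.5 CPM (45.0 to 63.2) at P0. Mesenchymal levels were 5.40 CPM (2.87 to 9.23) at E13.5, 1.19 CPM (0.0302 to 6.65) at E14.5, 10.5 CPM (8.25 to 13.1) at E15.5 and 3.19 CPM (1.38 to 6.29) at P0. The epithelium was thus 24.5-fold (14.1 to 46.6), 327-fold (58.4 to 12946), 16.4-fold (13.1 to 20.9) and 16.8-fold (8.29 to 39.6) higher, and the intervals of the tissues did not overlap at any stage. At E15.5, 84.0% (80.6 to 87.0) of epithelial and 8.83% (5.80 to 12.8) of mesenchymal cells held a Gata3 UMI, at median depths of 24695.5 and 24376 UMIs. The mesenchymal level of Gata3 was then 6.09% (4.78 to 7.65) of the epithelial level, and that of Lmo1 6.19% (4.52 to 8.27). Cdh1, Cldn7, Esrp1 and Grhl2 summed had 2.75% (2.40 to 3.13), with single genes from 1.96% (1.55 to 2.45) for Cldn7 to 7.71% (4.27 to 12.9) for Grhl2. The values of Gata3 and Lmo1 thus lay above the sum and below Grhl2 alone. At E13.5 Gata3 had 4.08% (2.15 to 7.10) and Lmo1 5.70% (2.40 to 11.6). The sum was then at 1.19% (0.681 to 1.95), and the highest single gene was Esrp1 at 2.03% (0.923 to 3.90). Whether such UMIs were made in the mesenchymal cells was not tested. Of the 76 mesenchymal UMIs of Gata3, 3 cells held 43.4%.

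Tbx3 (ENSMUSG00000018604, chr5:119670669-119684724, plus strand), a T-box repressor without which most mammary buds fail to form, had similar levels in both tissues at E13.5, E14.5 and P0. Epithelial cells had 109 CPM (94.9 to 124) at E13.5, 166 CPM (144 to 189.7) at E14.5, 35.8 CPM (32.8 to 39.1) at E15.5 and 21.0 CPM (15.8 to 27.4) at P0. In mesenchymal cells it was at 96.7 CPM (84.7 to 110.0) at E13.5, 139.6 CPM (115 to 167) at E14.5, 119 CPM (111 to 127) at E15.5 and 20.3 CPM (15.1 to 26.7) at P0. The ratio of epithelium to mesenchyme was 1.12 (0.931 to 1.36), 1.19 (0.943 to 1.501) and 1.03 (0.694 to 1.54) at these 3 stages, whereas at E15.5 the mesenchyme was 3.32-fold (2.97 to 3.71) higher. Of the 117 mesenchymal UMIs at E14.5, 49.6% came from 3 cells. Without skin-marked epithelial cells, Tbx3 was over 2-fold higher in the epithelium at E13.5, with a log2 ratio of 1.38.

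The epithelial ETS factors were almost absent from the mesenchyme. Elf3 (ENSMUSG00000003051, chr1:135253575-135258568, minus strand), known from many epithelia, had 133, 7, 115 and 124 epithelial UMIs at the 4 stages and 2, 0, 0 and 0 mesenchymal ones. The epithelial values were 65.1 CPM (54.5 to 77.2) at E13.5, 5.50 CPM (2.21 to 11.3) at E14.5, 8.05 CPM (6.64 to 9.66) at E15.5 and 47.4 CPM (39.4 to 56.5) at P0, so Elf3 was high at both ends of the series and low between. Epithelial cells were 78.4-fold (21.3 to 654) higher than mesenchymal cells at E13.5, at least 19.5-fold (15.6) at E15.5 and at least 39.6-fold (31.8) at P0.

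Elf5 (ENSMUSG00000027186, chr2:103411688-103450989, plus strand), the ETS factor that drives secretory luminal cells in the adult gland, followed the same course in the epithelium, with 44.1 CPM (35.4 to 54.2) at E13.5, 0 CPM (0 UMIs, which allows up to 2.36 CPM) at E14.5, 1.61 CPM (1.02 to 2.41) at E15.5 and 23.3 CPM (17.8 to 30.0) at P0. Mesenchymal cells held 0, 0, 0 and 3 UMIs of it at the 4 stages. The epithelium was at least 35.4-fold (28.2) higher at E13.5, at least 3.89-fold (2.92) at E15.5 and 19.5-fold (6.37 to 97.2) at P0. Only 23 UMIs in 17 cells stand behind the E15.5 value. Once every cell was thinned to 5000 UMIs, 4 were left against 0 in the mesenchyme, too few to be tested.

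Ehf (ENSMUSG00000012350, chr2:103263433-103303278, minus strand), the third of these ETS factors, lies beside Elf5 on chromosome 2 with 108409 bases between the genes. The epithelium held 1 UMI of it at E13.5 and 0 at E14.5, and had a level of 10.8 CPM (9.14 to 12.6) at E15.5 and 136 CPM (122 to 151) at P0. Mesenchymal cells had 0, 0, 0 and 1 UMIs at the 4 stages. It was at least 26.1-fold (21.0) higher in the epithelium at E15.5 and 341-fold (60.7 to 13487) at P0. At E14.5 the 0 UMIs of Elf5 and of Ehf in 45 epithelial cells allow a level of up to 2.36 CPM and a UMI in up to 6.67% of cells.

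Foxa1 (ENSMUSG00000035451, chr12:57540628-57546916, minus strand), a forkhead pioneer factor that opens chromatin for the estrogen receptor, had 1 and 3 epithelial UMIs at E13.5 and E14.5. Its later levels there were 13.502 CPM (11.7 to 15.55) at E15.5 and 42.1 CPM (34.6 to 50.7) at P0. With 0, 0, 0 and 2 mesenchymal UMIs over the 4 stages, the epithelium was at least 32.7-fold (26.3) higher at E15.5 and 52.8-fold (14.3 to 441) at P0. Foxa1 and Ehf were thus the members seen late and in the epithelium.

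Trps1 (ENSMUSG00000038679, chr15:50654752-50890463, minus strand), a repressor with a GATA-type zinc finger, was found in both tissues at E13.5 and E15.5 and mostly in the epithelium at E14.5 and at birth. Epithelial levels were 59.8 CPM (49.6 to 71.3) at E13.5, 144 CPM (124 to 166) at E14.5, 105 CPM (99.6 to 110.3) at E15.5 and 132 CPM (118 to 146) at P0. Mesenchymal cells had 30.7 CPM (24.1 to 38.6) at E13.5, 16.7 CPM (9.13 to 28.0) at E14.5, 79.3 CPM (73.0 to 86.1) at E15.5 and 4.79 CPM (2.47 to 8.36) at P0. The epithelium was 1.94-fold (1.45 to 2.63), 8.60-fold (4.998 to 16.0), 1.32-fold (1.1999 to 1.46) and 27.5-fold (15.54 to 53.7) higher from E13.5 to P0. Of the 14 mesenchymal UMIs at E14.5, 3 cells held 64.3%. At E13.5 the ratio passed 2-fold when cells had equal weight, without cycling cells or without skin-marked cells.

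Of the LIM-only adaptors, which bind no DNA themselves and join other factors to Ldb1, Lmo1 was epithelial and Lmo4 was found in both tissues. Lmo1 (ENSMUSG00000036111, chr7:109138572-109175207, minus strand) had epithelial levels of 58.3 CPM (48.3 to 69.7) at E13.5, 73.8 CPM (59.7 to 90.3) at E14.5, 105 CPM (99.4 to 110.1) at E15.5 and 7.65 CPM (4.67 to 11.8) at P0. The mesenchyme lay 17.5-fold (8.62 to 41.6), 61.9-fold (10.8 to 2469), 16.2-fold (12.1 to 22.1) and 19.2-fold (3.07 to 795) below these. Lmo4 (ENSMUSG00000028266, chr3:144188530-144205220, minus strand) was at 550.0 CPM (518 to 583) at E13.5, 761 CPM (714 to 811) at E14.5, 635 CPM (622 to 648) at E15.5 and 264 CPM (245 to 284) at P0 in the epithelium. Mesenchymal cells had 247 CPM (228 to 268) at E13.5, 285 CPM (250.2 to 324) at E14.5, 434 CPM (419 to 449.6) at E15.5 and 136 CPM (122 to 151) at P0, and the epithelium was 2.23-fold (2.01 to 2.46), 2.67-fold (2.31 to 3.09), 1.46-fold (1.405 to 1.52) and 1.94-fold (1.70 to 2.22) higher. Lmo4 was widely detected, with a UMI in 98 of 98 epithelial cells at E13.5 and 522 of 532 at E15.5.

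Runx1 (ENSMUSG00000022952, chr16:92601466-92826149, minus strand), a Runt-domain factor that pairs with Cbfb, had similar levels in both tissues at E13.5 and E15.5 and was epithelial at birth. In epithelial cells it was at 64.2 CPM (53.6 to 76.1) at E13.5, 77.0 CPM (62.5 to 93.8) at E14.5, 202 CPM (195 to 209) at E15.5 and 269 CPM (249.4 to 289.5) at P0. The mesenchyme had 51.9 CPM (43.2 to 61.8) at E13.5, 35.8 CPM (24.2 to 51.1) at E14.5, 190.5 CPM (181 to 201) at E15.5 and 46.7 CPM (38.6 to 55.9) at P0. Ratios of epithelium to mesenchyme were 1.24 (0.960 to 1.59), 2.15 (1.42 to 3.35), 1.06 (0.994 to 1.13) and 5.76 (4.73 to 7.07).

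Epithelial transcripts in mesenchymal droplets can be free RNA. At P0, Cdh1, Cldn7, Esrp1 and Grhl2 summed in mesenchymal cells to 3.18% (2.63 to 3.80) of their epithelial level, with single genes from 2.66% (1.86 to 3.71) for Cdh1 to 5.35% (0.625 to 20.7) for Grhl2. The same percentage was 5.96% (2.52 to 12.1) for Gata3, 5.13% (1.03 to 15.7) for Elf5, 3.64% (1.86 to 6.44) for Trps1, 1.90% (0.227 to 7.01) for Foxa1, 0.294% (0.00741 to 1.65) for Ehf and 0% (0 to 3.15) for Elf3. These intervals overlap or lie below that of the 4 epithelial genes summed, and the values are not read as mesenchymal expression. Tbx3 at 96.7% (64.7 to 144), Lmo4 at 51.5% (45.1 to 58.7) and Runx1 at 17.4% (14.1 to 21.1) were above the sum, and the interval of Runx1 overlaps that of Grhl2 alone.

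A list of 37 related genes (paralogs, partners, and hormone and milk genes of luminal cells) gave the setting. At E13.5, 18 could be tested, 3 were higher and 10 lower in the epithelium, with a median log2 ratio of -2.63 beside -0.18 for all genes. Elf1, a broadly expressed ETS factor, was 10.0-fold (7.81 to 13.1), the GATA cofactor Zfpm1 4.44-fold (2.57 to 8.09) and the estrogen receptor gene Esr1 2.40-fold (1.51 to 3.88) higher. Tbx15, Tbx2 and the Lmo partner Ldb2 were 142-fold (25.2 to 5658), 59.3-fold (10.3 to 2377) and at least 46.3-fold (37.3) lower. Tbx15 and Tbx2 thus lay on the mesenchymal side, unlike Tbx3 at this stage. At E14.5, 3 of 17 were higher and 9 lower, with a median of -1.51 beside 0.025. Elf1 was 9.14-fold (6.08 to 14.3), the growth factor gene Areg at least 4.39-fold (3.25) and Zfpm1 2.28-fold (1.21 to 4.60) higher, and Gata6 88.1-fold (15.2 to 3539.9), Tbx18 at least 32.9-fold (26.0) and Tbx2 30.4-fold (4.86 to 1259) lower. Gata6, a GATA factor of mesodermal tissues, was the opposite of Gata3.

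At E15.5, 5 of 22 of these genes were higher and 13 lower, with a median of -1.76 beside -0.10. Areg was 27.8-fold (17.7 to 46.4), Elf1 5.63-fold (5.18 to 6.13) and the receptor gene Kit 3.34-fold (1.497 to 8.76) higher, and Tbx5 329-fold (58.2 to 13063), Gata6 at least 84.0-fold (67.3) and Tbx18 77.8-fold (20.8 to 653) lower. Milk genes were among the first at P0, when 6 of 23 genes were higher and 10 lower, with a median of -0.41 beside 0.30. Csn2 was at least 121-fold (98.1), Areg 75.3-fold (54.5 to 107) and Csn3 64.6-fold (49.2 to 86.4) higher, and Gata6 99.0-fold (17.4 to 3953), Ldb2 at least 38.9-fold (31.1) and Tbx15 at least 19.5-fold (15.3) lower.

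The second question was how epithelial levels differed between stages. At E15.5 against E13.5, 3 of 10 members were at least 2-fold higher (Ehf, Foxa1 and Runx1), against 14.9% of all genes, and 3 at least 2-fold lower (Tbx3, Elf3 and Elf5), against 14.8%. At P0 against E15.5, 4 of 10 were higher (Elf3, Elf5, Ehf and Foxa1), against 15%, and 3 lower (Gata3, Lmo1 and Lmo4), against 18.5%. All 3 ETS factors were thus among the members higher at birth.

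Promoters of members at least 2-fold higher at a later stage are shown for the 4 of 5 with an entry in the RefSeq table (GRCm38.p6), as 300 bases from 250 before to 50 after the first start listed, on the strand of the gene. Ehf had no entry. Capitals mark matches to 1 of 5 core motifs searched on both strands, AGATAA for GATA factors, GGAAGT for ETS, TGTTTAC for forkhead, TGTGGTT for RUNX and AGGTGTGA for T-box. These 3' libraries do not tell which start was used.
Elf3, chr1:135258423-135258722, minus strand: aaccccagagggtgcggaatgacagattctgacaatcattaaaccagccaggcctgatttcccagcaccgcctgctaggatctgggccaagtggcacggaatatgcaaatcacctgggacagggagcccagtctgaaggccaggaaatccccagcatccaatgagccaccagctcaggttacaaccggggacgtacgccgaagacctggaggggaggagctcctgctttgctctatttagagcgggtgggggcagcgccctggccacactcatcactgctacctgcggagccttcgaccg
Elf5, chr2:103411848-103412147, plus strand: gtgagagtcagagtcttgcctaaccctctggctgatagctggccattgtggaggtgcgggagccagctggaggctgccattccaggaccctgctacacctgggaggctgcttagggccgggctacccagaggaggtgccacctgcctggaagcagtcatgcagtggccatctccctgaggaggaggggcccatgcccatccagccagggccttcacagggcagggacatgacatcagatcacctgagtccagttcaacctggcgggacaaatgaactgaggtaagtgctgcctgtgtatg
Foxa1, chr12:57546062-57546361, minus strand: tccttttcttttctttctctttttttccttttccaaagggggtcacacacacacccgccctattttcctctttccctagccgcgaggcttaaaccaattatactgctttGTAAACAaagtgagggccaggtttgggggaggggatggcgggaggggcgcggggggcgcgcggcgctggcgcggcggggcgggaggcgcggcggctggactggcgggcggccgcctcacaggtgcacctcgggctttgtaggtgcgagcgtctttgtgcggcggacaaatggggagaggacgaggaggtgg
Runx1, chr16:92826025-92826324, minus strand: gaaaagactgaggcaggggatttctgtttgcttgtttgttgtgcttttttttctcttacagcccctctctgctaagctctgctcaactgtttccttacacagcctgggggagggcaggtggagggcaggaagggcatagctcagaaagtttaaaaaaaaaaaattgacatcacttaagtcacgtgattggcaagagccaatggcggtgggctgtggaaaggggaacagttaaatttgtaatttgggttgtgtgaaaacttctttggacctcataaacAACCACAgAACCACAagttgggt

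The Foxa1 window held 1 match, to the forkhead motif on the opposite strand 141 bases before the start, and 3.65% of all 32851 promoter windows hold this motif. Runx1 had 2 matches to the RUNX motif, 28 and 36 bases after the start and on the opposite strand, in a window type that holds it in 5.27% of cases. The other start listed for Runx1, not shown, held no match to any motif, as did the other start of Elf5. Elf3 and Elf5 had none of the 5, of which ETS occurs in 23.8%, GATA in 11.2% and T-box in 1.28% of windows. A match is a description of letters and not a binding site.

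Ehf was 22.0-fold (3.89 to 874) higher at E15.5 than at E13.5 and 12.6-fold (10.4 to 15.3) higher at P0 than at E15.5. Foxa1 was 27.6-fold (4.89 to 1094) and 3.12-fold (2.44 to 3.96) higher in the same steps. Each had 1 UMI at E13.5. Thinned to 5000 UMIs a cell, the first step rested on 24 UMIs against 0 for Ehf and 32 against 0 for Foxa1, and these bounds no longer reached 2-fold, with log2 ratios of at least 0.56 and 0.97. Without skin-marked cells Ehf had 37 UMIs against 0, a log2 bound of 0.50.

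Elf3 and Elf5 were lower at E15.5 than at E13.5 and at P0, and at E14.5 they had only 7 and 0 UMIs. From E13.5 to E15.5 the level of Elf3 was 8.10-fold (6.26 to 10.5) and that of Elf5 27.4-fold (17.2 to 45.4) lower, and at P0 they were 5.90-fold (4.54 to 7.67) and 14.5003-fold (8.84 to 24.5) higher than at E15.5. Compared with E13.5, P0 was 1.37-fold (1.07 to 1.77) lower for Elf3 and 1.89-fold (1.35 to 2.66) lower for Elf5. These steps compare all epithelial cells. At E13.5, 102 of the 133 Elf3 UMIs and all 90 Elf5 UMIs lay outside the bud-marked cells defined in the next paragraph.

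Gata3 and Tbx3 were highest at E14.5, where 40 of the 45 epithelial cells had at least 3 UMIs of the bud genes Pthlh, Sostdc1, Ndnf and Wnt10b together (bud-marked cells). Gata3 was 2.95-fold (2.54 to 3.44) higher at E14.5 than at E13.5, 2.27-fold (2.06 to 2.502) lower at E15.5 than at E14.5 and 3.21-fold (2.71 to 3.83) lower at P0 than at E15.5. Tbx3 was 1.52-fold (1.26 to 1.85) higher, then 4.63-fold (3.92 to 5.44) and 1.70-fold (1.29 to 2.29) lower in these steps. Between E13.5 and E15.5, Gata3 was 1.30-fold (1.15 to 1.48) higher, but over 2-fold lower without skin-marked cells, with a log2 ratio of -1.13. That setting left out bud-marked cells too at E13.5, so the 2 ratios compare different sets of cells.

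Within bud-marked cells Gata3 was at 205 CPM (179 to 233) at E13.5, 416 CPM (379 to 456) at E14.5 and 192 CPM (182 to 202) at E15.5. Here E13.5 and E15.5 did not differ beyond counting error, with a ratio of 1.07 (0.924 to 1.23) in favour of E13.5. Tbx3 was at 171 CPM (148 to 198), 184 CPM (159.6 to 211) and 51.3 CPM (46.4 to 56.6), and E15.5 was 3.34-fold (2.79 to 3.98) below E13.5. Runx1 went the other way, with 33.5 CPM (23.6 to 46.2), 84.3 CPM (68.1 to 103) and 228 CPM (218 to 239), and was 6.81-fold (4.92 to 9.71) higher at E15.5 than at E13.5. From E14.5 to E15.5 alone, Runx1 was 2.71-fold (2.20 to 3.37) higher in bud-marked cells. Mesenchymal Runx1 was 5.32-fold (3.71 to 7.92) higher in this same step, which was thus not confined to bud-marked cells. Elf3 was at 28.1, 5.38 and 4.72 CPM in bud-marked cells, 5.95-fold (3.57 to 9.86) lower at E15.5 than at E13.5. Elf5 had 0, 0 and 11 UMIs in them, too few for a fold.

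Lmo1 was 1.80-fold (1.49 to 2.18) higher at E15.5 than at E13.5 and 13.7-fold (8.83 to 22.5) lower at P0. Lmo4 was 1.15-fold (1.09 to 1.23) higher and 2.41-fold (2.23 to 2.60) lower. Trps1 stayed within 2-fold in both steps, 1.75-fold (1.46 to 2.13) and 1.25-fold (1.11 to 1.41) higher at the later stage. Runx1 was 3.15-fold (2.64 to 3.78) and 1.33-fold (1.22 to 1.45) higher. In the mesenchyme P0 was lower than E15.5 for Trps1 by 16.6-fold (9.42 to 32.3), for Tbx3 by 5.84-fold (4.40 to 7.91), for Runx1 by 4.08-fold (3.38 to 4.97) and for Lmo4 by 3.19-fold (2.85 to 3.58). Gata3 was lower by 3.28-fold (1.58 to 7.87) and Lmo1, with 1 UMI at P0, by 16.2-fold (2.77 to 655). The share over all genes was not computed for this mesenchymal step, so these values are not read as particular to the members.

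Of the 37 related genes, 14 could be tested between E13.5 and E15.5, 4 were higher and 2 lower at E15.5, with a median log2 ratio of 0.44 beside -0.049 for all genes. Areg was 9.90-fold (5.98 to 17.8), Elf4 3.999-fold (1.67 to 12.5) and Zfpm2 at least 3.19-fold (2.52) higher, and Zfpm1 2.503-fold (1.85 to 3.35) and Kit 2.13-fold (1.08 to 3.94) lower. At P0 against E15.5, 7 of 17 were higher and 4 lower, with a median of 0.13 beside -0.11. The milk genes led, with Csn3 at 3567 UMIs against 1, Wfdc18 at least 18824-fold (15306) higher and Csn2 at least 691-fold (559) higher. Zfpm2 was at least 4.08-fold (3.23), Runx2 3.34-fold (2.05 to 5.80) and Zfpm1 2.34-fold (1.36 to 4.36) lower.

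The third question was which epithelial cells carried the members at E13.5, when the bud still lies in the skin. Of the 98 epithelial cells, 48 were bud-marked and 50 were not, with median depths of 21772 and 18040.5 UMIs. In bud-marked cells 2 of 8 members were at least 2-fold higher (Gata3 and Tbx3), against 7.44% of all genes, and 3 at least 2-fold lower (Elf3, Elf5 and Runx1), against 7.39%. Ehf and Foxa1, with 1 UMI each, could not be tested.

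Gata3 was at 205 CPM (179 to 233) in bud-marked and 46.9 CPM (34.1 to 63.0) in other epithelial cells, 4.37-fold (3.15 to 6.18) higher. Tbx3 was at 171 CPM (148 to 198) against 35.2 CPM (24.2 to 49.4), 4.87-fold (3.35 to 7.28) higher. In single cells these genes were seen together, as 43 of the 59 epithelial cells with a Gata3 UMI had a Tbx3 UMI (72.9%, 59.7 to 83.6), against 12 of the 39 without (30.8%, 17.0 to 47.6). At an equal depth of 5000 UMIs a cell the numbers were 20 of 33 and 13 of 65, in the same order.

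Elf5 was at the opposite pole. It had 0 UMIs in bud-marked cells, which allows up to 2.72 CPM and a UMI in up to 6.25% of cells, and was at 95.9 CPM (77.1 to 118) in the others, at least 35.3-fold (28.1) more. Of the other epithelial cells, 29 had at least 10 UMIs of Krt17, Krt6a, Krt13 and Krt4 together, keratins made in the periderm, the outer layer of embryonic skin. The mark was chosen after the values were seen, and 26 of these periderm-marked cells carried Elf5, or 89.7% (72.6 to 97.8). They held 86 of the 90 UMIs, at 159 CPM (127 to 197), and the 21 cells with neither mark held the remaining 4.

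**Figure D2:**
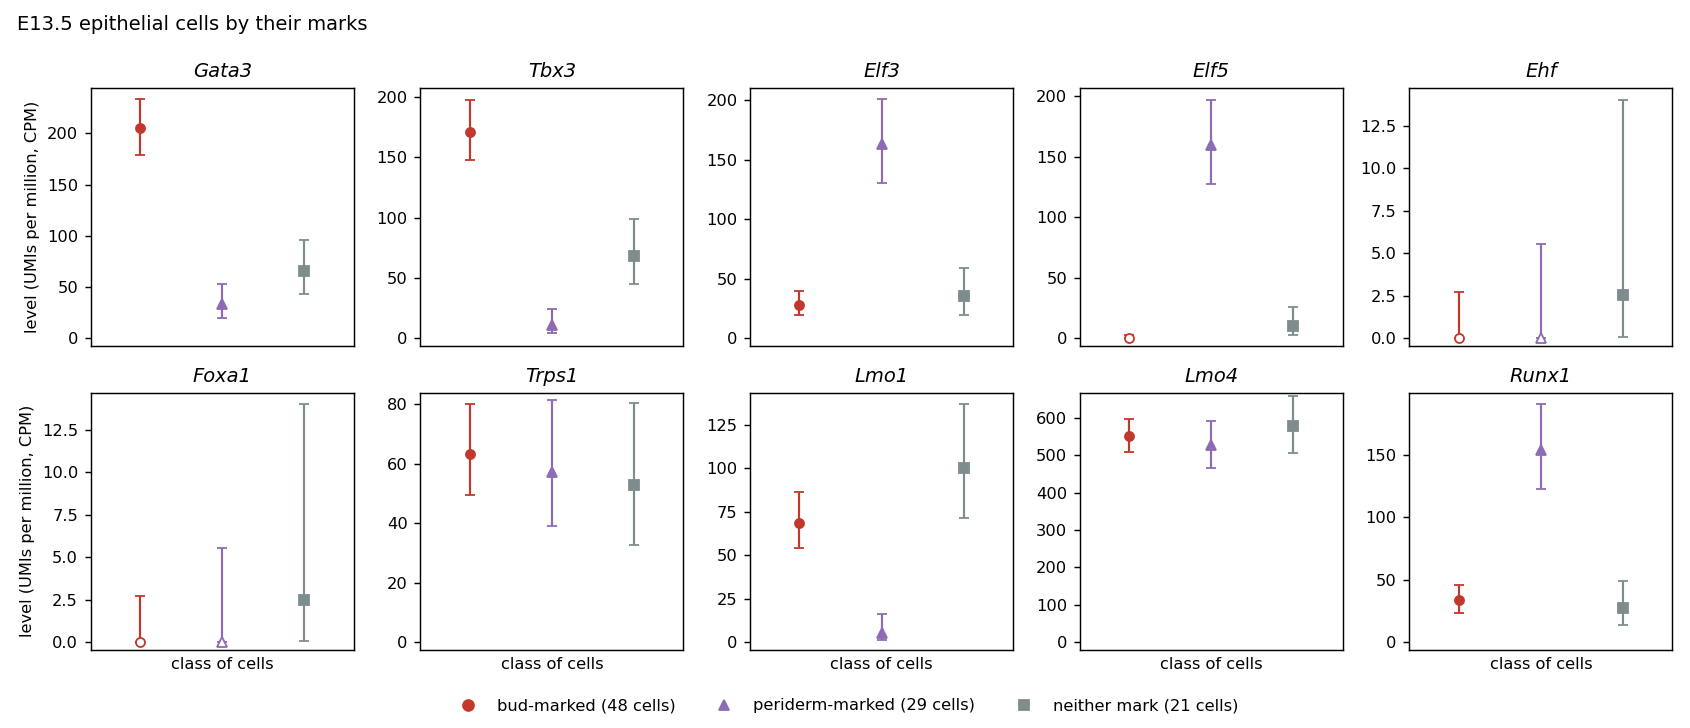
Level in CPM (y axis, linear, starting at 0) of each of the 10 genes in the 3 classes of E13.5 epithelial cells: bud-marked (48 cells), periderm-marked (29 cells) and neither (21 cells), with colours and symbols as in the legend. Bars are exact 95% Poisson intervals and open symbols mark 0 UMIs, with a bar up to the 3-count limit. Gata3 and Tbx3 were highest in bud-marked cells, and Elf3, Elf5 and Runx1 in periderm-marked cells.

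Elf3 and Runx1 shared this pattern. Elf3 was at 28.1 CPM (19.1 to 39.9) in bud-marked, 163 CPM (131 to 201) in periderm-marked and 35.2 CPM (19.2 to 59.0) in the remaining cells. Runx1 was at 33.5 CPM (23.6 to 46.2), 154 CPM (122 to 191) and 27.6 CPM (13.8 to 49.4) in the same order. Periderm-marked cells were 5.80-fold (3.81 to 9.04) above bud-marked cells for Elf3 and 4.58-fold (3.08 to 6.95) for Runx1. Without them 2 members were higher in bud-marked cells and 0 lower, and the log2 ratio of Runx1 was 0.28. The mark rests almost on 1 gene, since Krt17 gave 1210 UMIs in these cells and Krt6a, Krt13 and Krt4 13, 2 and 12, and Krt17 was also at 665 CPM in Acta2-marked cells at P0. The 4 keratins, which the mark itself used, summed to 2291 CPM in periderm-marked cells, 128 CPM in bud-marked cells and 57.8 CPM in the rest.

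Cells with and without an Elf5 UMI are described by their other genes, with no test, as Elf5 chose them. The 28 cells with Elf5 had Krt17 at 2144 CPM against 181 CPM in the 70 without. Pthlh was at 1.97 CPM against 112 CPM and Sostdc1 at 3.93 CPM against 174 CPM. A Gata3 UMI was found in 5 of the cells with Elf5 (17.9%, 6.06 to 36.9) and in 54 of those without (77.1%, 65.6 to 86.3), and an Elf3 UMI in 23 (82.1%, 63.1 to 93.9) and 23 (32.9%, 22.1 to 45.1). Elf5 and Elf3 thus shared cells that mostly lacked Gata3 and the bud genes.

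Trps1, Lmo1 and Lmo4 did not set bud-marked cells apart by 2-fold. Trps1 was at 63.4 CPM (49.5 to 80.1) in bud-marked and 55.4 CPM (41.4 to 72.7) in other cells, and the ratio of Lmo4 was 1.01 (0.894 to 1.14). Lmo1 was at 68.9 CPM (54.3 to 86.2) in bud-marked, 5.56 CPM (1.15 to 16.2) in periderm-marked and 100.4 CPM (71.8 to 137) in the remaining cells, low in the periderm-marked ones. Of the 37 related genes, 7 could be tested, 0 were higher and 0 lower, with a median log2 ratio of 0.25 beside 0.055 for all genes. Skin markers summed to 411 CPM in bud-marked, 579.7 CPM in periderm-marked and 718 CPM in the remaining cells, with 6 of 7 genes detected in each. Most of these sums was Krt15, at 343, 341 and 650 CPM in the same order. Krtdap, at 9.97, 109 and 5.02 CPM, and Lor, at 4.53, 44.5 and 2.51 CPM, were highest in periderm-marked cells. Without skin-marked cells, 2 members were at least 2-fold higher and 1 lower in bud-marked cells. Lmo1, with 76 and 43 UMIs in bud-marked and other cells, then had under 20 UMIs, so most of its UMIs lay in skin-marked cells. At this stage these include bud-marked cells, so the loss does not place Lmo1 in skin.

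At E15.5, 276 of the 532 epithelial cells were bud-marked. In them 1 of 10 members was at least 2-fold higher (Tbx3), against 6.17% of all genes, and 1 at least 2-fold lower (Elf3), against 3.07%. Tbx3 was at 51.3 CPM (46.4 to 56.6) against 17.0 CPM (14.001 to 20.5), 3.01-fold (2.43 to 3.75) higher. Elf3 was at 4.72 CPM (3.32 to 6.51) against 12.1 CPM (9.55 to 15.1), 2.56-fold (1.71 to 3.89) lower. Gata3 differed by 1.30-fold (1.196 to 1.41), at 192 CPM (182 to 202) against 148 CPM (139 to 157). Tbx3 and Elf3 thus lay on the same sides as at E13.5, and Gata3 was within 2-fold. For Elf3 both differences depended on which cells were kept. Without periderm-marked cells its log2 ratio at E13.5 was -0.32 (-1.28 to 0.70), and without skin-marked cells it was within 2-fold at E15.5. The second setting was applied to bud-marked cells too, so it does not place the E15.5 difference outside the bud.

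Runx1 was 1.35-fold (1.25 to 1.45), Lmo1 1.64-fold (1.47 to 1.83), Trps1 1.37-fold (1.24 to 1.53) and Lmo4 1.27-fold (1.22 to 1.32) higher in bud-marked cells, and Ehf 1.85-fold (1.33 to 2.60) lower. The ratio was 1.16 (0.866 to 1.57) for Foxa1 and 1.32 (0.535 to 3.31) for Elf5, the latter in favour of other cells, and both intervals include no difference. Of 14 related genes tested, 2 were higher, Zfpm2 2.86-fold (1.58 to 5.46) and Stat5b 2.20-fold (0.986 to 5.37), and 0 lower, with a median of 0.31 beside 0.16. Skin markers summed to 544 CPM in bud-marked and 3016 CPM in other cells, with 7 of 7 detected in both. With skin-marked cells left out, Tbx3 was the 1 member 2-fold apart.

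**Figure D3:**
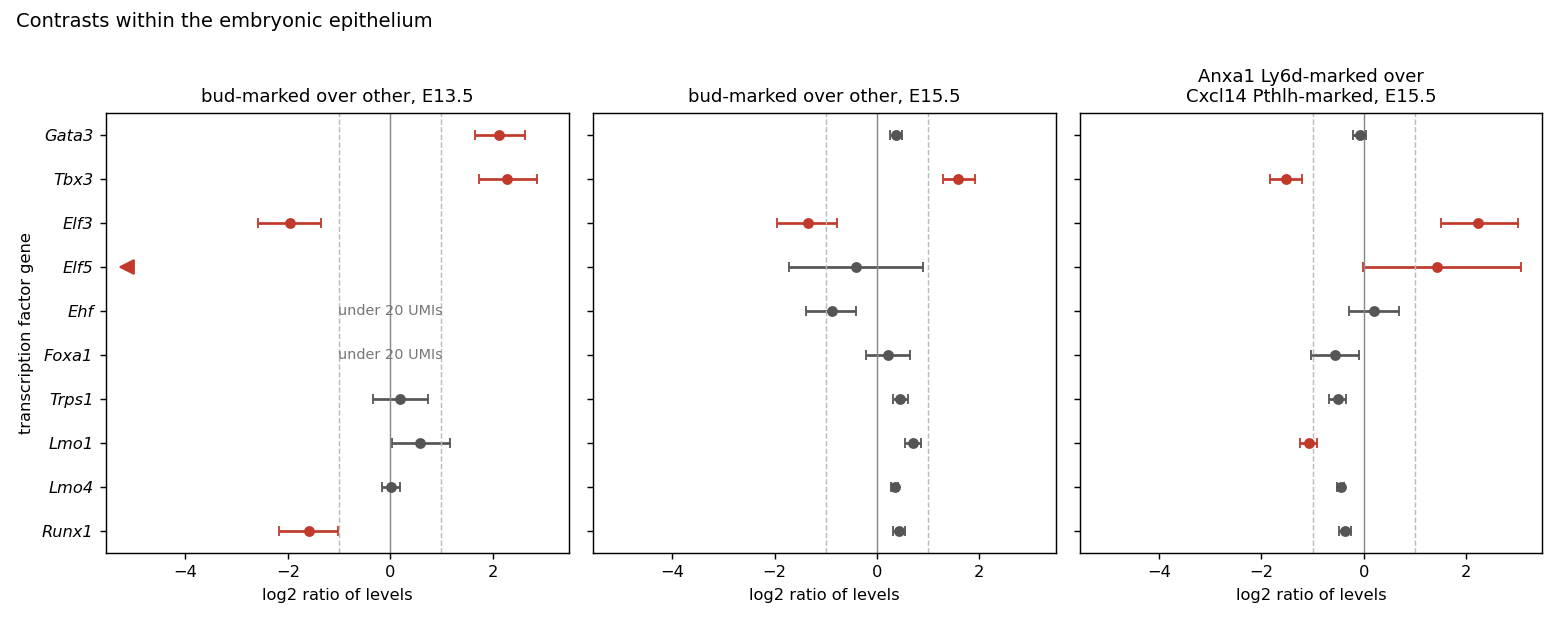
Log2 ratio of the levels (x axis) of each member (y axis) in 3 comparisons within the embryonic epithelium: bud-marked over other cells at E13.5 and at E15.5, and Anxa1 Ly6d-marked over Cxcl14 Pthlh-marked cells at E15.5. Points with bars are ratios with exact 95% intervals, the triangle is a bound for a gene with 0 UMIs in 1 class, dashed lines mark 2-fold, and red marks members at least 2-fold apart. Tbx3 was on the bud-marked side in both stages and on the Cxcl14 Pthlh-marked side in the last comparison, with Elf3 opposite to it in all 3. In the bud-marked comparisons Elf3 was within 2-fold without periderm-marked cells at E13.5 and without skin-marked cells at E15.5. Both E15.5 comparisons split the same epithelial cells with marks that share Pthlh, so they are not independent.

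A further split of the E15.5 epithelium set Anxa1 and Ly6d against Cxcl14 and Pthlh. The study lists the first pair as possible early luminal markers and the second as basal ones, in epithelium from which skin cells had been removed. It names Lmo1, a member here, beside the second pair from the same stage and library. The side of Lmo1 in this split is therefore not an independent result. Skin cells were kept here, so the classes are not the study's luminal-like and basal-like cells. Pthlh is also a gene of the bud mark, so this split and the bud-marked one are not independent. Cells with at least 3 UMIs of the first pair and more of it than of the other numbered 200, those with the opposite pattern 242, with median depths of 27343 and 24601 UMIs. In Anxa1 Ly6d-marked cells 2 of 10 members were at least 2-fold higher (Elf3 and Elf5), against 4.05% of all genes, and 2 at least 2-fold lower (Tbx3 and Lmo1), against 7.87%.

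Elf3 was at 14.54 CPM (11.6 to 17.9) in Anxa1 Ly6d-marked and 3.11 CPM (1.90 to 4.8002) in Cxcl14 Pthlh-marked cells, 4.68-fold (2.85 to 8.03) higher. Elf5, with 15 and 6 UMIs, had a ratio of 2.69 (0.986 to 8.46), and its interval includes no difference. Tbx3 was at 18.9 CPM (15.6 to 22.7) against 53.9 CPM (48.4 to 59.9), 2.86-fold (2.30 to 3.56) lower. Lmo1 sided with Tbx3, at 69.2 CPM (62.7 to 76.2) against 146 CPM (137 to 155), 2.11-fold (1.87 to 2.37) lower. Skin markers moved with this split, at 3347 CPM and 475 CPM (7 of 7 detected in both), as did Krt17, Krt6a, Krt13 and Krt4 summed, at 1127 CPM and 435 CPM. Without skin-marked cells Lmo1 was within 2-fold, with a log2 ratio of -0.62, and Ehf was over 2-fold lower, with a log2 ratio of -1.03. Few UMIs of Ehf were left in that setting. Over the settings varied the log2 ratio of Ehf ran from -1.03 to 0.91, so its direction was not stable. Lmo1 was also within 2-fold with a mitochondrial maximum of 10%. After thinning to 5000 UMIs a cell, Elf3 had too few UMIs to be tested.

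With the main settings, the luminal regulators Gata3 and Foxa1 were not higher in Anxa1 Ly6d-marked cells. Skin markers were high in this class, so the values do not describe luminal-like mammary cells alone. Gata3 was at 168 CPM (157 to 178) against 177 CPM (167 to 188), a ratio of 1.06 (0.9701 to 1.15) in favour of Cxcl14 Pthlh-marked cells. Over the settings varied, among them leaving out skin-marked cells, its log2 ratio ran from -0.24 to 0.013. Foxa1 was at 10.7 CPM (8.24 to 13.7) against 15.7 CPM (12.8 to 19.1), 1.47-fold (1.06 to 2.04) lower. Its log2 ratio ran from -0.67 to 0.62 over the settings varied, so its direction was not stable. For Ehf the ratio was 1.15 (0.822 to 1.61) in favour of Anxa1 Ly6d-marked cells, and Trps1, Lmo4 and Runx1 were 1.42-fold (1.27 to 1.59), 1.37-fold (1.31 to 1.43) and 1.28-fold (1.18 to 1.39) lower. Among the 14 related genes tested, 0 were higher and 3 lower, Zfpm2 2.52-fold (1.42 to 4.68), Elf4 2.24-fold (1.51 to 3.38) and Esr1 2.01-fold (1.48 to 2.76), with a median of -0.50 beside -0.15.

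At birth the epithelium was divided by marks of its 3 lineages. Of 230 epithelial cells, 128 had at least 2 UMIs of Aldh1a3, a retinaldehyde dehydrogenase of luminal progenitors, 28 at least 3 UMIs of Cited1 and Prlr together, genes of hormone-sensing cells, and 18 at least 5 UMIs of Acta2, the smooth muscle actin of basal cells. A further 51 had no mark and 5 had several. Median depths of the 3 marked classes were 9796, 15004 and 10147 UMIs. Luminal progenitor markers summed to 9639 CPM, 105 CPM and 2411 CPM in them, hormone-sensing markers to 613 CPM, 4128 CPM and 230.4 CPM, and basal markers to 953 CPM, 69.1 CPM and 8856 CPM. These sums hold the marks themselves.

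In Aldh1a3-marked against Cited1 Prlr-marked cells, 1 of 9 members was at least 2-fold higher (Elf5), against 14.4% of all genes, and 2 at least 2-fold lower (Tbx3 and Foxa1), against 8.96%. Against Acta2-marked cells, Aldh1a3-marked cells had 2 of 8 higher (Elf3 and Ehf), against 22.7%, and 2 lower (Lmo4 and Runx1), against 6.86%. Cited1 Prlr-marked cells had 4 of 8 higher than Acta2-marked cells (Tbx3, Elf3, Ehf and Foxa1), against 23.8%, and 2 lower (Lmo4 and Runx1), against 11%. The comparisons share classes. Being higher in Aldh1a3-marked than in Acta2-marked cells was about as frequent among the members as among all genes.

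**Figure D4:**
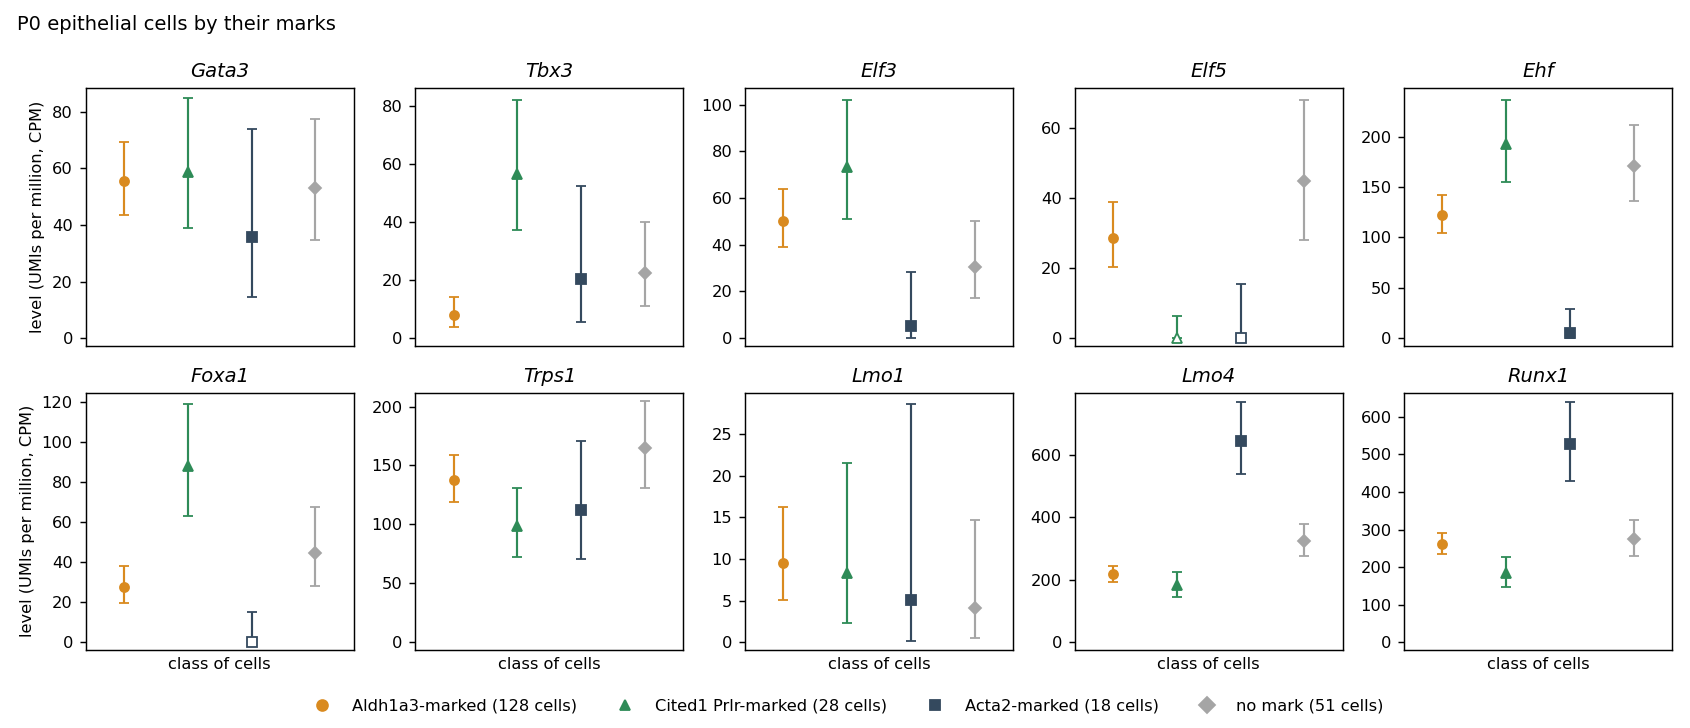
Level in CPM (y axis, linear, starting at 0) of each of the 10 genes in classes of P0 epithelial cells by their mark (Aldh1a3, Cited1 and Prlr, Acta2, or no mark), with colours, symbols and cell numbers in the legend. Bars are exact 95% Poisson intervals and open symbols mark 0 UMIs, with a bar up to the 3-count limit. Foxa1 and Tbx3 were highest in Cited1 Prlr-marked cells, Elf5 had 0 UMIs there, and Lmo4 and Runx1 were highest in Acta2-marked cells.

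Foxa1 and Tbx3 stood highest with the hormone-sensing mark. Foxa1 was at 88.0 CPM (63.4 to 119) in Cited1 Prlr-marked, 27.7 CPM (19.6 to 38.0) in Aldh1a3-marked and 0 CPM (0 UMIs, which allows up to 15.4 CPM) in Acta2-marked cells. The first were 3.17-fold (2.00 to 5.06) above Aldh1a3-marked and at least 5.73-fold (4.46) above Acta2-marked cells. Tbx3 was at 56.5 CPM (37.3 to 82.3), 8.02 CPM (4.01 to 14.4) and 20.5 CPM (5.58 to 52.4), and 7.05-fold (3.38 to 15.7) higher in Cited1 Prlr-marked than in Aldh1a3-marked cells. Against Acta2-marked cells its ratio was 2.76 (0.962 to 10.9), from 27 and 4 UMIs, and the interval includes no difference. After thinning to 5000 UMIs a cell, Tbx3 had too few UMIs to be tested in either comparison, as had Foxa1 against Acta2-marked cells. Foxa1 stayed over 2-fold higher in Cited1 Prlr-marked than in Aldh1a3-marked cells.

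Elf5 had the reverse distribution. Aldh1a3-marked cells had it at 28.4 CPM (20.2 to 38.9), from 39 UMIs in 27 of 128 cells. The 28 Cited1 Prlr-marked and 18 Acta2-marked cells held 0 UMIs, which allows up to 6.28 CPM and 15.4 CPM and a UMI in up to 10.7% and 16.7% of cells. Aldh1a3-marked cells were at least 4.53-fold (3.51) above the former and at least 1.85-fold (1.44) above the latter. After thinning to 5000 UMIs, 20 UMIs against 0 were left for the first of these, and the bound, a log2 ratio of at least 0.54, no longer reached 2-fold. Cells without a mark had Elf5 at 44.8 CPM (28.1 to 67.8), 1.58-fold (0.890 to 2.72) above Aldh1a3-marked cells.

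Ehf and Elf3 were shared by the luminal classes and low in the basal one. Ehf was at 123 CPM (105 to 143) in Aldh1a3-marked, 193 CPM (155 to 236) in Cited1 Prlr-marked and 5.12 CPM (0.130 to 28.5) in Acta2-marked cells. Elf3 was at 50.3 CPM (39.2 to 63.7), 73.3 CPM (51.1 to 102) and 5.12 CPM (0.130 to 28.5). With 1 UMI each in Acta2-marked cells, the ratio of Aldh1a3-marked to Acta2-marked cells was 23.9 (4.24 to 951) for Ehf and 9.83 (1.71 to 394) for Elf3. Between the luminal classes, Ehf was 1.57-fold (1.21 to 2.04) and Elf3 1.46-fold (0.941 to 2.22) higher in Cited1 Prlr-marked cells.

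Lmo4 and Runx1 were highest in Acta2-marked cells. Lmo4 was at 645 CPM (537 to 768) there, 218 CPM (194 to 244) in Aldh1a3-marked and 182 CPM (146 to 225) in Cited1 Prlr-marked cells, 2.96-fold (2.38 to 3.65) and 3.54-fold (2.67 to 4.71) below. Runx1 was at 527 CPM (430.4 to 639), 263 CPM (236 to 291) and 184 CPM (148 to 227), and the luminal classes were 2.01-fold (1.60 to 2.51) and 2.86-fold (2.13 to 3.85) below. The former ratio of Runx1 lies at the limit of 2-fold and fell under it with a UMI minimum of 3000, after thinning, and in cells whose larger tissue sum was at least 5 times the smaller.

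Gata3, Trps1 and Lmo1 were not 2-fold apart or could not be tested. Gata3 was at 55.4 CPM (43.7 to 69.4) in Aldh1a3-marked, 58.6 CPM (39.0 to 84.8) in Cited1 Prlr-marked and 35.8 CPM (14.4 to 73.8) in Acta2-marked cells, with overlapping intervals. Trps1 was at 138 CPM (119 to 159), 98.4 CPM (72.3 to 131) and 113 CPM (70.6 to 171), and Lmo1 had 13, 4 and 1 UMIs.

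Of the 37 related genes, 11 could be tested between Aldh1a3-marked and Cited1 Prlr-marked cells, 5 were higher and 2 lower, with a median log2 ratio of 0.98 beside 0.032 for all genes. Wfdc18 was 229-fold (134 to 429), Csn3 86.9-fold (47.2 to 181) and Csn2 32.0-fold (5.61 to 1279) higher, and Areg 5.57-fold (5.11 to 6.07) and the progesterone receptor gene Pgr 3.83-fold (1.48 to 10.3) lower. The level of Csn3 was 1819 CPM in Aldh1a3-marked cells and 1894 CPM in Acta2-marked cells, in which Elf5 had 0 UMIs. Between Aldh1a3-marked and Acta2-marked cells 5 of 10 were higher and 0 lower, with a median of 0.86 beside 0.35, led by Wfdc18 17.4-fold (13.7 to 22.3), Csn2 at least 4.37-fold (3.48) and Areg 2.62-fold (1.93 to 3.63). In Cited1 Prlr-marked against Acta2-marked cells 1 of 6 was higher, Areg at 14.6-fold (10.8 to 20.1), and 2 were lower, Csn3 90.4-fold (48.6 to 190.2) and Wfdc18 13.2-fold (7.22 to 25.9), with a median of -0.30 beside 0.31.

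In single P0 epithelial cells, 21 of the 58 with a Foxa1 UMI had a Tbx3 UMI (36.2%, 24.0 to 49.9), against 16 of the 172 without (9.30%, 5.41 to 14.7). Ehf was found in 47 of the cells with Foxa1 (81.0%, 68.6 to 90.1) and 83 of those without (48.3%, 40.6 to 56.0). Elf5 was found in 7 (12.1%, 4.99 to 23.3) and 31 (18.0%, 12.6 to 24.6), and these intervals overlap. Deeper cells give more joint detections, and thinned to 5000 UMIs the numbers were 3 of 24 and 18 of 206 for Tbx3, 14 of 24 and 77 of 206 for Ehf and 1 of 24 and 23 of 206 for Elf5. At that depth no order can be read for Tbx3, whose UMIs became few.

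The genes with levels most like each member were sought over 17 classes of cells, some nested in others, among 5926 genes with at least 50 CPM in a class, by Pearson's r of log2(CPM + 10). The classes share libraries, so these are descriptions. Ehf and Foxa1 were among each other's 3 nearest genes. For Ehf these were Wincr1 (0.959), Wfdc2 (0.958) and Foxa1 (0.949), and for Foxa1 Tnip3 (0.964), Ehf (0.949) and Wincr1 (0.948). Elf5 was nearest to Proser2 (0.939), Arg1 (0.921) and Cited4 (0.918), and Elf3 to Gpx1 (0.904), Cldn3 (0.877) and Cmtm8 (0.875). No other pair of members were near each other in this sense.

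The nearest genes of Gata3 were Dgka (0.952), Cd2ap (0.943) and Cnot7 (0.9405), and those of Tbx3 Emsy (0.911), Dhx30 (0.909) and Anapc1 (0.902). Lmo1 was nearest to Slc25a17 (0.967), Dnase2a (0.957) and Celsr1 (0.954), and Lmo4 to Mau2 (0.934), Ulk1 (0.915) and Yap1 (0.900). For Trps1 they were Zfp217 (0.934), Myo10 (0.918) and Tanc1 (0.906), and for Runx1 Lmna (0.899), Chic2 (0.899) and Rtn4 (0.890).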

How the data were processed

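Single cells of the mammary region of wild-type female mice were profiled at 4 stages, with 1 library per stage. The authors aligned the reads to the pre-built mm10 reference with 10x Cell Ranger (version 3.1.0 at E15.5 and 6.0.0 at the other stages, per the file headers) and deposited counts of UMIs per gene and barcode, without normalization. Genes were matched between libraries by Ensembl identifier. The E15.5 list held 31053 genes and the other lists 32285. The cut on cells (5000 UMIs or more, no more than 6% mitochondrial) is the study's, and it left more cells here at each stage than the study states. Doublets were excluded by the authors in the sort, and no caller was run. Members, marks and lists were chosen with earlier results of these data known, and the periderm mark after the values were seen. The 10 members are named in every class, and of the 37 related genes the 3 with the largest ratio in each direction in a comparison.

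Counts were summed per class and scaled to CPM, with exact Poisson intervals for levels, exact conditional binomial intervals for ratios and exact binomial (Clopper-Pearson) intervals for shares, at 95%. They cover counting error within a library, and cells are not replicates, so no p-value was computed. The intervals were checked on simulated Poisson counts, which hold no spread between cells, so the check does not bear on such spread. Settings varied were the mitochondrial maximum (10%), the UMI minimum (3000), thinning of cells to 5000 UMIs, equal weight of cells, mixed droplets, cycling cells, the gene minimum (5 UMIs), the marks and skin-marked cells. Gene coordinates are those of GENCODE on GRCm38 and promoters those of RefSeq (GRCm38.p6). Python 3.11.15, numpy 2.4.6, scipy 1.17.1, pandas 2.3.3 and matplotlib 3.10.9 were used. Protein sequences were not analysed here.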

Additional observations from a re-analysis of the deposited data

How the results depend on the processing

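Over the alternatives run, 97 of 103 counts of members 2-fold apart stayed within 1.5 times the reported count. The 6 that moved were these. In bud-marked against other cells at E13.5 the count went from 5 to 3 (2 higher, 1 lower) without skin-marked cells and to 2 (2 higher, 0 lower) without periderm-marked cells, and at E15.5 it went from 2 to 1 without skin-marked cells. These 3 settings were chosen after seeing the data. Thinning every cell to 5000 UMIs, which leaves fewer genes over the minimum and, against 0 UMIs, bounds that no longer reach 2-fold, moved the count from 4 to 2 for Anxa1 Ly6d-marked against Cxcl14 Pthlh-marked cells, from 3 to 1 for Aldh1a3-marked against Cited1 Prlr-marked cells and from 6 to 3 for Cited1 Prlr-marked against Acta2-marked cells. Of 914 log2 ratios of members, 784 stayed within their 95% interval, 129 moved further and 1 that had been 2-fold apart changed direction, Runx1 in bud-marked against other cells at E13.5, to 0.28 without periderm-marked cells. Among ratios that were not 2-fold apart the direction also changed in 13 of the 784 and 9 of the 129, the latter including Gata3 between E15.5 and E13.5, to -1.13, and Ehf between Anxa1 Ly6d-marked and Cxcl14 Pthlh-marked cells, to -1.03, both without skin-marked cells. Of the 914, 99 were bounds against 0 UMIs, whose direction was taken from the counts. No paired analysis was possible because each stage has 1 library. No value has a replicate library, and the 18 Acta2-marked cells with 0 UMIs of a gene allow up to 15.4 CPM.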
